A study of Mus musculus with 6 samples.

Results

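The contractile ring genes described here are the small GTPase gene Rhoa, its kinase effectors Rock1, Rock2 and Cit, the diaphanous formins Diaph1, Diaph2 and Diaph3, the scaffold gene Anln, and the nonmuscle myosin II heavy chains Myh9 and Myh10. They were chosen by symbol, as RhoA effectors and components of the actomyosin ring, and make up 10 of the 24421 genes in the deposited table. The table lists the formins under the older symbols Diap1, Diap2 and Diap3. All 10 passed the filter on low values that left 12121 genes to test, which was 1 FPKM or more in at least 3 libraries. FPKM are read fragments scaled to transcript length and library size, so levels can be compared between genes. Poly(A) RNA of whole hearts from mouse embryos of stage E18.5, late in gestation, was sequenced in 3 libraries labelled Gas2l3 -/- and 3 labelled wildtype, all of strain C57/Bl6. The labels give no other allele or agent, and they do not say which part of Gas2l3 was deleted, whether the deletion was limited to some cells, or whether each library came from a separate embryo. P-values therefore measure the spread between these libraries, which may be technical.

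RhoA is a molecular switch of the cell cortex. At the end of mitosis it is activated in a band around the cell's equator by the exchange factor Ect2, which the centralspindlin subunit encoded by Racgap1 recruits. Active RhoA turns on formins, which nucleate the unbranched actin filaments of the ring, and the kinases ROCK and citron kinase, which raise the activity of nonmuscle myosin II, while anillin ties actin, myosin, septins and RhoA to the membrane. The series title ties Gas2l3, whose protein binds actin and microtubules, to cytokinesis of cardiomyocytes. Cardiomyocytes around birth pass from division to rounds of the cell cycle without cytokinesis, which leave many of them binucleate. Most ring proteins also serve cells that do not divide, in adhesion, migration and contractility. Anln, Cit and Diaph3 are known for transcripts that follow the cell cycle and are called the proliferation-linked members here. The other 7 members are expressed in most cells whether or not they divide.

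Promoter sequence from RefSeq (build GRCm38.p6; 250 bases before to 50 bases after the annotated start) was matched for 8 of the 10 members in 9 windows. Rock1 and Diaph1 have no entry in the table used. The windows were searched on both strands for TTTGAA (the core of the cell cycle genes homology region), CCAAT (the box bound by NF-Y), TTTCGCGC and TTTGGCGC (forms of the E2F site) and the CArG box of serum response factor. The stretches shown hold both Anln matches and 2 of the 3 matches each of Diaph3 and Myh10. Capitals mark the matched motifs, read on either strand, and positions count from the annotated start, with the starting base as 1 and the base before it as -1. The Anln stretch covers positions 13 to 42 on the minus strand (chr9:22389165-22389194), the Diaph3 stretch -120 to -12 on the minus strand (chr14:87141236-87141344) and the Myh10 stretch -72 to -1 on the plus strand (chr11:68691843-68691914).
Anln: gcgctgaaaTTCAAAtTTTGAAcggccgtg
Diaph3: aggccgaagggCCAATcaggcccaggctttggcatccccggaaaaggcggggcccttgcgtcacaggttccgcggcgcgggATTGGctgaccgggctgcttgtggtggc
Myh10: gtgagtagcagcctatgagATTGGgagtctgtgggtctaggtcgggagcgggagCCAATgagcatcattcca
Anln held TTTGAA at 2 places, at positions 22 to 27 and 29 to 34, on opposite strands and separated by 1 base, and no other member window held it. Of the 32544 promoter windows in the table, 17.8% held this motif. CCAAT was found 3 times in the Diaph3 window, 3 times in the Myh10 window and 2 times in the Myh9 window, and in 37.4% of all windows. Neither E2F form (0.326% and 0.519% of all windows) nor the CArG box (1.64%) occurred in the member windows. In these windows the motifs did not part the proliferation-linked members from the others. The Cit window had none of them, and Diaph3 shared CCAAT with both myosin genes. The Cit and Myh10 windows begin at 115845406 and 68691665, after the GENCODE gene starts at 115845278 and 68691559. Sequence before those gene starts was not searched. These are letter matches, not sites shown to be bound.

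Whole reads could be recovered from the FPKM, and came to between 3414257 (wildtype replicate 1) and 7732674 (wildtype replicate 3) per library. The next lowest total was 5514800, in Gas2l3 -/- replicate 2. Behind each member value stood between 54 reads (Cit) and 2458 reads (Rhoa). Wildtype replicate 3 stood furthest apart, with a mean correlation of 0.899 with the other libraries, and its deviations from the gene means correlated at 0.702 with GC content over genes. In every other library that correlation was negative, most so in both replicates 1 (-0.481 in Gas2l3 -/- and -0.474 in wildtype). In the rest it lay between -0.159 and -0.071. With the log of transcript length the deviations correlated at 0.336 (Gas2l3 -/-) and 0.351 (wildtype) in replicates 1. In replicates 2 these values were -0.413 and -0.308. The longest transcripts of the members had GC contents between 40.2% and 57.0%, on both sides of the median over tested genes. Fold changes after removal of each library's trends on GC content and transcript length are given for all members beside the plot of fold changes. Gas2l3 itself had 4.03, 2.99 and 3.06 FPKM in Gas2l3 -/- replicates 1, 2 and 3, and 10.3, 4.12 and 2.48 FPKM in wildtype replicates 1, 2 and 3. As deposited, the groups overlapped. With GC and length trends removed they did not. The values were then 1.80, 1.94 and 1.81 in Gas2l3 -/- and 2.97, 2.37 and 2.16 in wildtype on the log2 scale. How many of all genes separated in that setting was not counted. Exons outside the deletion may still be counted, so these values do not test the genotype, and directions refer to the labels.

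Every member had a lower mean on the log2 scale in Gas2l3 -/- hearts, yet none passed the test. In whole hearts, fewer cells of a type and less RNA per cell cannot be told apart. The test was limma on log2(FPKM + 0.5), with p-values adjusted by Benjamini-Hochberg over all tested genes and called under 0.05; a positive log2 fold change means higher in Gas2l3 -/-. It called 0 of the 10 members and 0 of the 12121 genes (0%), and a test on the recovered reads with voom also called 0. At an unadjusted p under 0.05 limma found 0 members, against 394 genes in all (3.25%), of which the lower ones were 1.35% of those tested. Means were lower in Gas2l3 -/- for 10 of 10 members and for 51% of all genes. The members were chosen with earlier results of these data known, so this contrast is a description only. The groups did not overlap for 1 member, Diaph2, which was lower; 4.74% of all genes were lower without overlap and 9.76% differed without overlap in either direction. Paired by replicate number, 4 members (Diaph2, Diaph3, Anln and Myh10) were lower in all 3 pairs, as were 13.8% of all genes. The median log2 fold change of the members was -0.29, against -0.0089 for all genes. When the libraries were rescaled to a common total FPKM, the median of all genes moved to 0.15 and that of the members to -0.13. Then 6 of the 10 members and 33.0% of all genes had a lower mean in Gas2l3 -/-.

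**Figure D1:**
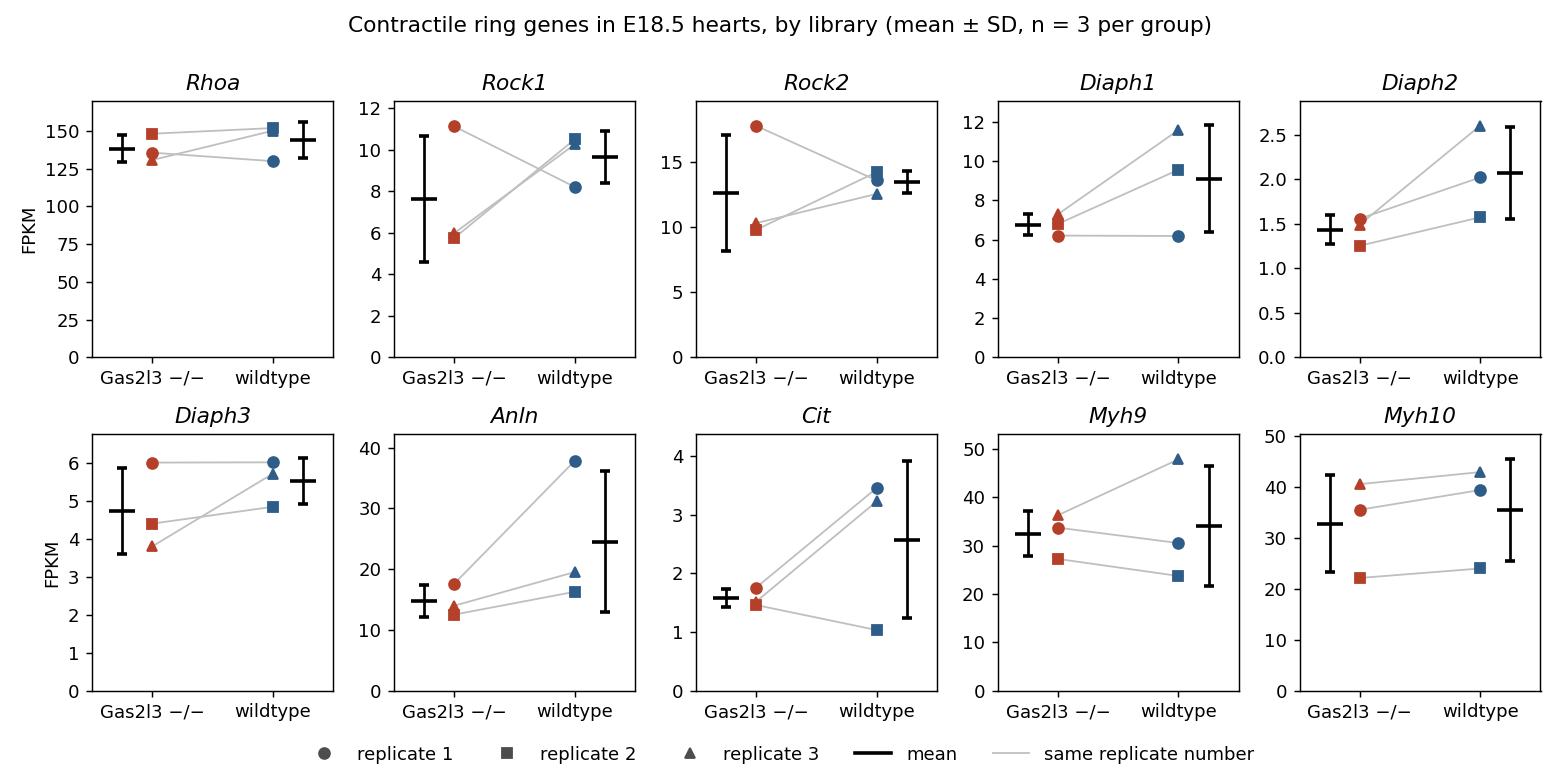
FPKM of each contractile ring gene in the 3 Gas2l3 -/- libraries (red, left) and the 3 wildtype libraries (blue, right), with bars for the mean ± SD and grey lines joining libraries of the same replicate number. The groups separate for Diaph2 alone, and in Anln wildtype replicate 1 (37.8 FPKM) stands far above the other 5 libraries.

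The plot of FPKM by library shows the spread that each comparison has to exceed. Levels spanned a wide range: Rhoa, at a mean of 141 FPKM over the 6 libraries, exceeded 95.2% of tested genes, whereas Diaph2, at 1.75 FPKM, exceeded 7.90% of them. Myh10 and Myh9 followed Rhoa at 34.1 and 33.2 FPKM, and their ranges over libraries overlapped almost entirely. Next came Anln at 19.6, Rock2 at 13.0, Rock1 at 8.63, Diaph1 at 7.94, Diaph3 at 5.13 and Cit at 2.07 FPKM. Neighbours in this order had overlapping ranges over the 6 libraries, except Rhoa with Myh10, Diaph1 with Diaph3 and Diaph3 with Cit. Rhoa was also the steadiest member, with a highest library 1.17 times the lowest, while Cit and Anln varied most, at 3.34 and 3.02 times.

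Rhoa, the switch itself (chromosome 9, 108306129 to 108337934, mm10), had 136, 148 and 131 FPKM in Gas2l3 -/- replicates 1, 2 and 3, and 130, 152 and 150 FPKM in wildtype replicates 1, 2 and 3. The lowest and the highest value were both from wildtype hearts, so the groups overlapped fully. Its mean was 138 ± 8.99 FPKM in Gas2l3 -/- and 144 ± 12.2 FPKM in wildtype (SD, n = 3 each). By limma its log2 fold change was -0.06 (adjusted p = 0.986, SE 0.28), with a 95% interval from -0.69 to 0.57. Its close relatives Rhob and Rhoc stood at -0.02 and -0.24, with overlap.

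The ROCK kinases phosphorylate the myosin regulatory light chain and the phosphatase that acts on it. Rock1 (chromosome 18, 10064401 to 10182045) had 11.1, 5.74 and 5.98 FPKM in Gas2l3 -/- replicates 1, 2 and 3, and 8.20, 10.5 and 10.3 FPKM in wildtype replicates 1, 2 and 3. Gas2l3 -/- replicates 2 and 3 lay below every wildtype library, but replicate 1 lay above them all. By limma Rock1 stood at a log2 fold change of -0.38 (adjusted p = 0.966, SE 0.30), and the authors' deposited table lists it at -0.26 with no p-value. Rock2 (chromosome 12, 16894895 to 16987823) had 17.8, 9.79 and 10.3 FPKM in Gas2l3 -/- and 13.6, 14.2 and 12.5 FPKM in wildtype, in the same order of replicates. It showed the same arrangement, with replicate 1 of Gas2l3 -/- highest of all and the other 2 lowest, and by limma its fold change was -0.14 in log2 (adjusted p = 0.969, SE 0.28). Without Gas2l3 -/- replicate 1 the log2 fold change of Rock1 was -0.67, and that of Rock2 was -0.40, and neither passed. Without Gas2l3 -/- replicate 2 they were -0.22 for Rock1 and 0.012 for Rock2, and without Gas2l3 -/- replicate 3 that of Rock1 was -0.25. Both kinase genes moved together over the 6 libraries (Pearson r = 0.89, given as a description, since the libraries share their depth and GC trends).

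Of the diaphanous formins, Diaph1 is widely expressed, Diaph2 is the least abundant here and Diaph3 is the one linked to dividing cells. Diaph1 (chromosome 18, 37843601 to 37935476) had 6.21, 6.80 and 7.29 FPKM in Gas2l3 -/- replicates 1, 2 and 3, and 6.18, 9.56 and 11.6 FPKM in wildtype replicates 1, 2 and 3. The 3 Gas2l3 -/- values were close together, and wildtype replicate 1 lay just below them. By limma Diaph1 stood at a log2 fold change of -0.36 (adjusted p = 0.966, SE 0.28); without wildtype replicate 1 it was -0.60 and without wildtype replicate 3 it was -0.18. Diaph2 (chromosome X, 129749742 to 130465834) had 1.56, 1.25 and 1.49 FPKM in Gas2l3 -/- and 2.02, 1.57 and 2.60 FPKM in wildtype. All Gas2l3 -/- values were below all wildtype values, although the nearest pair differed by less than the spread within either group. With 57 to 134 reads per library, Diaph2 had a log2 fold change of -0.39 by limma (adjusted p = 0.966, SE 0.28), and with GC and length trends removed the groups overlapped. Without wildtype replicate 3 the log2 fold change of Diaph2 was -0.24. Diaph3 (chromosome 14, 86655367 to 87141235) had 6.01, 4.40 and 3.80 FPKM in Gas2l3 -/- and 6.02, 4.85 and 5.72 FPKM in wildtype. Replicates 1 of both groups were level and the groups overlapped; limma gave a log2 fold change of -0.22 (adjusted p = 0.966, SE 0.26). Without Gas2l3 -/- replicate 1 the log2 fold change of Diaph3 was -0.39, and without Gas2l3 -/- replicate 3 it was -0.088. The summed FPKM of the 3 formins was 13.8, 12.5 and 12.6 in Gas2l3 -/- replicates 1, 2 and 3. In wildtype it was 14.2, 16.0 and 19.9, so these sums did not overlap as deposited. Of single genes, 9.76% differed without overlap in either direction. With GC and length trends removed, each formin gene overlapped between the groups. Diaph1 was then lowest of all in wildtype replicate 1 (2.67 on the log2 scale). The sum was not computed for that setting. Other member sums overlapped, such as the ROCK sum at 15.5 to 28.9 FPKM in Gas2l3 -/- and 21.8 to 24.7 in wildtype. For the myosin genes the sums were 49.4 to 76.9 and 47.7 to 90.8 FPKM, and for all members 240 to 267 and 258 to 306 FPKM.

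Anln, the anillin scaffold gene (chromosome 9, 22332012 to 22389188), had the largest log2 fold change of the members. It stood at 17.6, 12.5 and 13.98 FPKM in Gas2l3 -/- replicates 1, 2 and 3, and at 37.8, 16.3 and 19.5 FPKM in wildtype replicates 1, 2 and 3. Each Gas2l3 -/- library was below the wildtype library of the same number, while the groups overlapped between Gas2l3 -/- replicate 1 and wildtype replicate 2. Its mean was 14.7 ± 2.62 FPKM in Gas2l3 -/- and 24.5 ± 11.6 FPKM in wildtype (SD, n = 3 each). Limma gave Anln a log2 fold change of -0.64 (SE 0.35), with a 95% interval from -1.43 to 0.15, an unadjusted p of 0.0995 and an adjusted p of 0.966. Without wildtype replicate 1 it was -0.28. With GC and length trends removed it was -0.79 (SE 0.22, adjusted p = 0.440, limma), and the groups no longer overlapped. The values were 3.94, 3.78 and 3.77 in Gas2l3 -/- and 4.92, 4.18 and 4.78 in wildtype on the log2 scale. In that setting 922 of 11716 genes had an unadjusted p under 0.05 (limma), and the share of all genes without overlap was not counted. Over 18 alternative settings the log2 fold change of Anln ranged from -0.88 to -0.28, and its adjusted p from 0.266 to 0.9999 (limma). Among these settings, changes of filter or threshold and a block on replicate number cannot change the fold change itself.

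Cit, the gene of citron kinase (chromosome 5, 115845278 to 116008947), also gives rise in other tissues to a form without the kinase domain, which a value per gene does not separate. It had 1.76, 1.46 and 1.52 FPKM in Gas2l3 -/- replicates 1, 2 and 3, and 3.45, 1.03 and 3.22 FPKM in wildtype replicates 1, 2 and 3. The Gas2l3 -/- values were nearly equal, and the wildtype values lay on both sides of them, with replicate 2 lowest of all 6 libraries. Limma gave Cit a log2 fold change of -0.45 (adjusted p = 0.966, SE 0.39), which rested on 54 to 135 reads per library. Without wildtype replicate 2 it was -0.89 (unadjusted p = 0.0178, adjusted p = 0.881, limma), and 507 of 12121 genes then had an unadjusted p under 0.05. Without wildtype replicate 1 the log2 fold change of Cit was -0.20 and without wildtype replicate 3 it was -0.25.

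Myh9 and Myh10 encode the heavy chains of nonmuscle myosins IIA and IIB, the motors of the ring; IIB is known as the form needed in embryonic cardiomyocytes. Myh9 (chromosome 15, 77760587 to 77842175) had 33.7, 27.2 and 36.3 FPKM in Gas2l3 -/- replicates 1, 2 and 3, and 30.5, 23.7 and 47.8 FPKM in wildtype replicates 1, 2 and 3. The groups overlapped fully, at a log2 fold change of -0.02 by limma (adjusted p = 0.997, SE 0.32). This sign depended on wildtype replicate 3, without which it was 0.25, and on Gas2l3 -/- replicate 2, without which it was 0.099. With GC and length trends removed it was 0.26 (adjusted p = 0.711, limma). In that setting the Gas2l3 -/- values, at 5.15, 5.09 and 5.26 on the log2 scale, lay above the wildtype values of 5.03, 4.87 and 4.83. The share of all genes without overlap was not counted for that setting. Myh10 (chromosome 11, 68691559 to 68816632) had 35.6, 22.2 and 40.6 FPKM in Gas2l3 -/- and 39.4, 24.0 and 43.0 FPKM in wildtype. Each Gas2l3 -/- library was slightly below its same-numbered wildtype library, by much less than the libraries of a group differed, and the groups overlapped. Limma gave Myh10 a log2 fold change of -0.11 (adjusted p = 0.974, SE 0.34); without wildtype replicate 3 it was 0.04, and without Gas2l3 -/- replicate 2 it was 0.14.

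**Figure D2:**
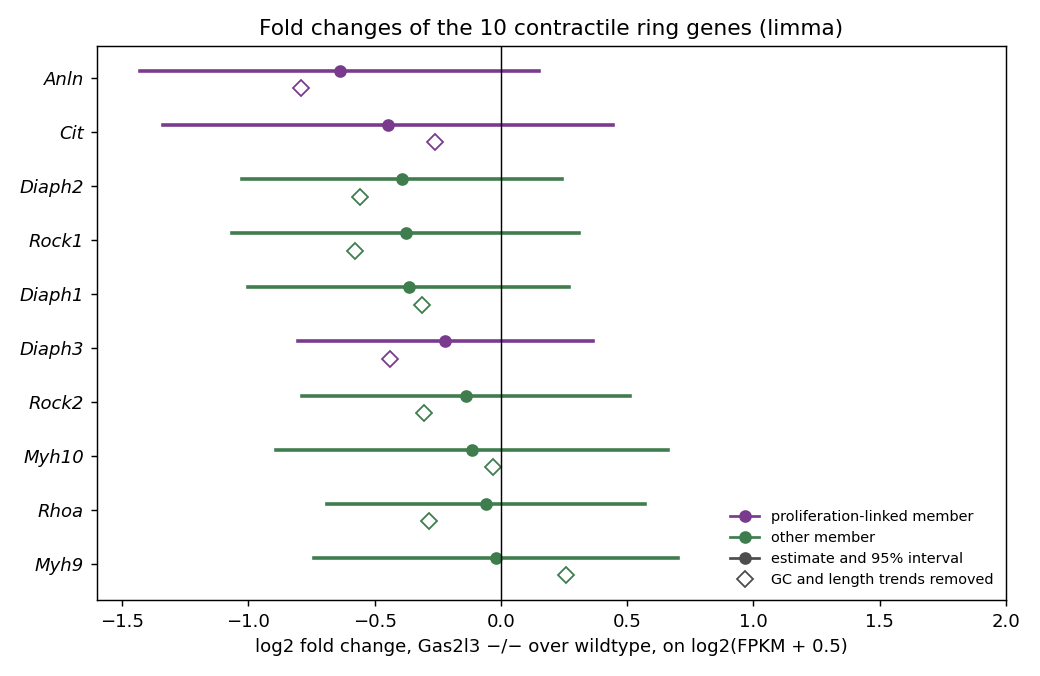
Log2 fold changes of the 10 members, Gas2l3 -/- over wildtype, from limma on log2(FPKM + 0.5). Filled points with lines are estimates with 95% intervals, open diamonds are estimates with GC and length trends removed, and every interval spans 0; Anln lies lowest at -0.64 and Myh9 nearest 0 at -0.02, with its diamond at 0.26.

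The plot of fold changes shows that each 95% interval included 0 and reached down to -0.69 or below. With trends removed, 9 of 10 members stayed below 0, with a median of -0.31 against -0.01 for all genes, and Myh9 alone moved above 0. The log2 fold changes in that setting were -0.28 for Rhoa, -0.58 for Rock1, -0.31 for Rock2, -0.31 for Diaph1, -0.56 for Diaph2 and -0.44 for Diaph3. Anln stood at -0.79, Cit at -0.26 and Myh10 at -0.03 there. The authors' deposited table also gives negative log2 fold changes for 10 of 10 members, from -0.53 for Anln to -0.05 for Rhoa. It calls 9 of the 12243 genes that have an adjusted p there, and 0 members. These fold changes come from the same libraries and are no separate evidence.

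The proliferation-linked members were then set against the others. Anln, Cit and Diaph3 had a median log2 fold change of -0.45, and the other 7 members a median of -0.14. Within each library, the mean log2(FPKM + 0.5) of the 3 proliferation-linked members minus that of the other 7 was -1.44, -1.42 and -1.63 in Gas2l3 -/- replicates 1, 2 and 3, and -0.73, -1.66 and -1.42 in wildtype replicates 1, 2 and 3. Wildtype replicate 1 was the high value, and the remaining libraries of both groups were intermingled. The mean difference was -1.50 ± 0.116 in Gas2l3 -/- and -1.27 ± 0.484 in wildtype (SD, n = 3 each), so the groups differed by -0.23, less than the wildtype spread. Without wildtype replicate 1 the sign turned, to 0.04. With any other library left out, the difference between the groups lay between -0.42 and -0.16. With trends removed this difference was -0.24. The median log2 fold changes then came to -0.44 for the proliferation-linked members and -0.31 for the others.

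**Figure D3:**
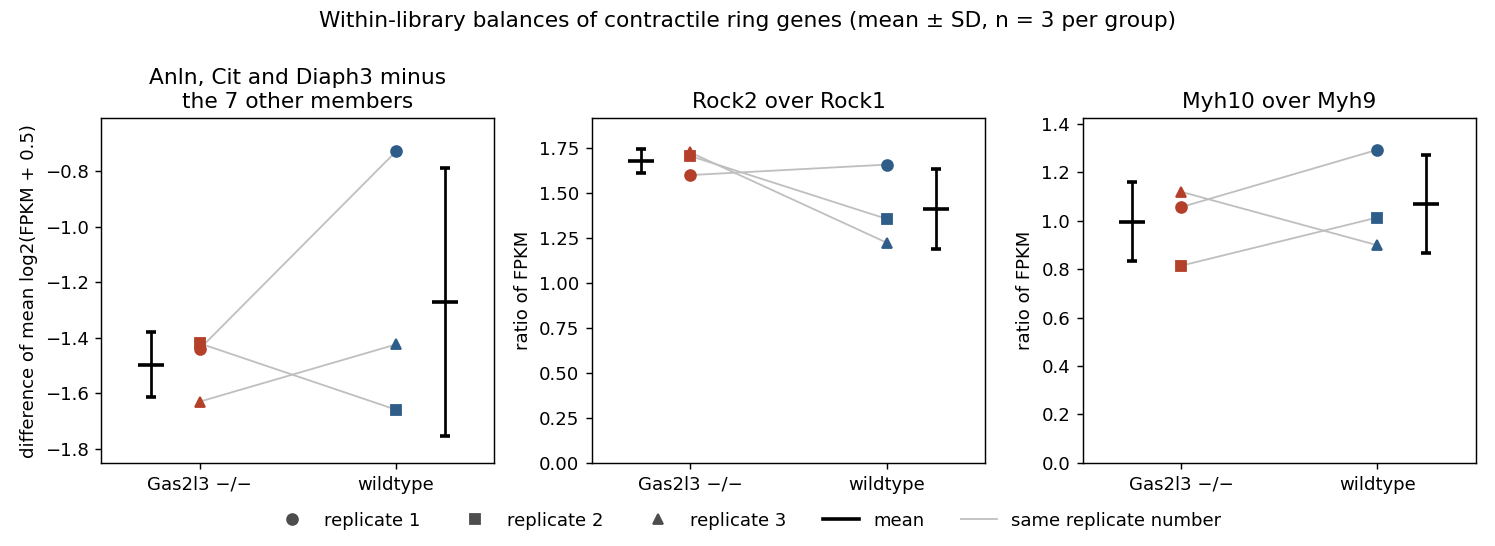
Balances within each library, with Gas2l3 -/- in red on the left and wildtype in blue on the right: the mean log2(FPKM + 0.5) of Anln, Cit and Diaph3 minus that of the other 7 members, the FPKM ratio of Rock2 to Rock1 and the FPKM ratio of Myh10 to Myh9. Bars are the mean ± SD and grey lines join the same replicate number; in each panel the groups overlap, and wildtype replicate 1 sets the upper end of the first panel at -0.73.

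The plot of balances also gives ratios between paralogs, which do not depend on a scaling factor per library but can shift with trends on GC content and length. Rock2 stood at 1.60, 1.70 and 1.72 times Rock1 in Gas2l3 -/- replicates 1, 2 and 3, and at 1.66, 1.35 and 1.22 times in wildtype replicates 1, 2 and 3. Only wildtype replicate 1 fell within the range of Gas2l3 -/- libraries, and the other wildtype libraries lay below it. Myh10 stood at 1.06, 0.814 and 1.12 times Myh9 in Gas2l3 -/-, and at 1.29, 1.01 and 0.899 times in wildtype, and the groups overlapped. The difference in the log2 ratio of Myh10 to Myh9 was -0.09 as deposited and -0.29 with those trends removed. The pairs of paralogs thus kept their order in every library for the ROCK kinases but not for the myosins.

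The same contrast was made with general reference lists. All 10 of 10 proliferation genes had lower means in Gas2l3 -/- (median -0.61), 9 of them in all 3 pairs and 3 without overlap, and 0 were called. Without wildtype replicate 1 their median was -0.38, with trends removed it was -0.71 and when rescaled to a common total it was -0.43. Aurkb, the kinase of the chromosomal passenger complex, had 16.2, 14.4 and 14.5 FPKM in Gas2l3 -/- and 24.4, 22.7 and 27.0 FPKM in wildtype (log2 fold change -0.70, SE 0.23). Tpx2 at -0.63 and Cenpe at -0.69 were the others without overlap, and Bub1 stood at -0.64. Of 12 housekeeping genes, 8 had lower and 4 higher means (median -0.03; -0.22 with trends removed and 0.14 when rescaled to a common total), and single genes ranged widely, from Polr2a at -0.58 to Pgk1 at 0.63. Over the 6 libraries Anln varied more like the proliferation genes (median Pearson r = 0.69) than like the housekeeping genes (median r = -0.07). By the same measure Diaph3 had medians of 0.52 and 0.01, and Cit 0.46 and 0.04. This did not part the proliferation-linked members from the others, since Diaph2 had 0.51 and 0.35 and Rock1 0.49 and 0.15, while Myh9 had 0.03 and 0.26. The genes most like Anln were Kif20a (r = 0.995), Cdca2 (0.988), Kntc1 (0.987), Ppm1e (0.984) and Zranb3 (0.983), and all 5 were highest in wildtype replicate 1, as Anln was. Those most like Rhoa were Eid2 (0.994), Adi1 (0.991), Apopt1 (0.986), Ndufc1 (0.981) and Atp5l (0.979). Among the members themselves, Myh9 with Myh10 (0.82), Cit with Diaph2 (0.81) and Anln with Cit (0.77) were most alike after the ROCK pair. With 6 libraries such values are descriptions only.

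Around the members, the other genes of the RhoA pathway were read as lists, and 0 genes of any list were called (limma). Of 10 exchange factors that load RhoA with GTP, 5 had lower and 5 higher means (median 0.02). Ect2, the exchange factor of cytokinesis, had 9.87, 5.92 and 6.34 FPKM in Gas2l3 -/- and 19.7, 9.51 and 7.87 FPKM in wildtype (log2 fold change -0.63, SE 0.37), with overlap. Arhgef28 went the other way without overlap, at 5.95, 4.19 and 4.59 FPKM in Gas2l3 -/- and 3.97, 1.98 and 2.29 FPKM in wildtype (log2 fold change 0.77, SE 0.30, adjusted p = 0.966, limma). Arhgef1 stood at -0.25 and Akap13 at -0.18. Of 12 GTPase-activating proteins and dissociation inhibitors, 9 had lower and 3 higher means (median -0.10). Racgap1, of centralspindlin, had 24.1, 20.2 and 28.5 FPKM in Gas2l3 -/- and 43.4, 37.5 and 48.4 FPKM in wildtype, without overlap (log2 fold change -0.82, SE 0.26, adjusted p = 0.966, limma). Arhgap11a, a cell cycle-linked GTPase-activating protein for RhoA, was also without overlap, at -0.67 (SE 0.26), while Arhgdib stood at 0.43 and Stard13 at 0.24.

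Downstream of RhoA, 14 of 17 other formins and effectors were tested, and 11 had lower and 3 higher means (median -0.13), with Fmnl1 at -0.39, Daam1 at -0.28, Limk1 at -0.24 and Fhod3, the formin of cardiac sarcomeres, at -0.19. Of 12 tested myosin light chains, kinases, phosphatase subunits and other myosin partners, 9 had lower and 3 higher means (median -0.07). Dapk3 stood at -0.46, Ppp1r12c at -0.22, Svil at -0.18 and Myl9, a regulatory light chain of smooth muscle and nonmuscle myosin, at 0.41. The 17 genes of cortical actin, septins and their linkers divided into 9 lower and 8 higher (median -0.09), from Iqgap3 at -0.81 and Ezr at -0.38 to Pfn2 at 0.58 and Sept2 at 0.61. With trends removed the medians were 0.03 for the other formins and effectors, 0.0066 for the myosin partners and -0.02 for the cortical genes. Of 12 genes of serum response factor and its actin-regulated cofactors and targets, 6 had lower and 6 higher means (median 0.0014). Within them Ankrd1, a stretch-responsive gene of cardiomyocytes, had 1211, 1383 and 1299 FPKM in Gas2l3 -/- and 746, 751 and 329 FPKM in wildtype, without overlap (log2 fold change 1.19, SE 0.44, adjusted p = 0.966, limma). Ctgf at 0.75 and Cyr61 at 0.73, both also targets of YAP, were higher without overlap too, and Srf stood at -0.38.

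**Figure D4:**
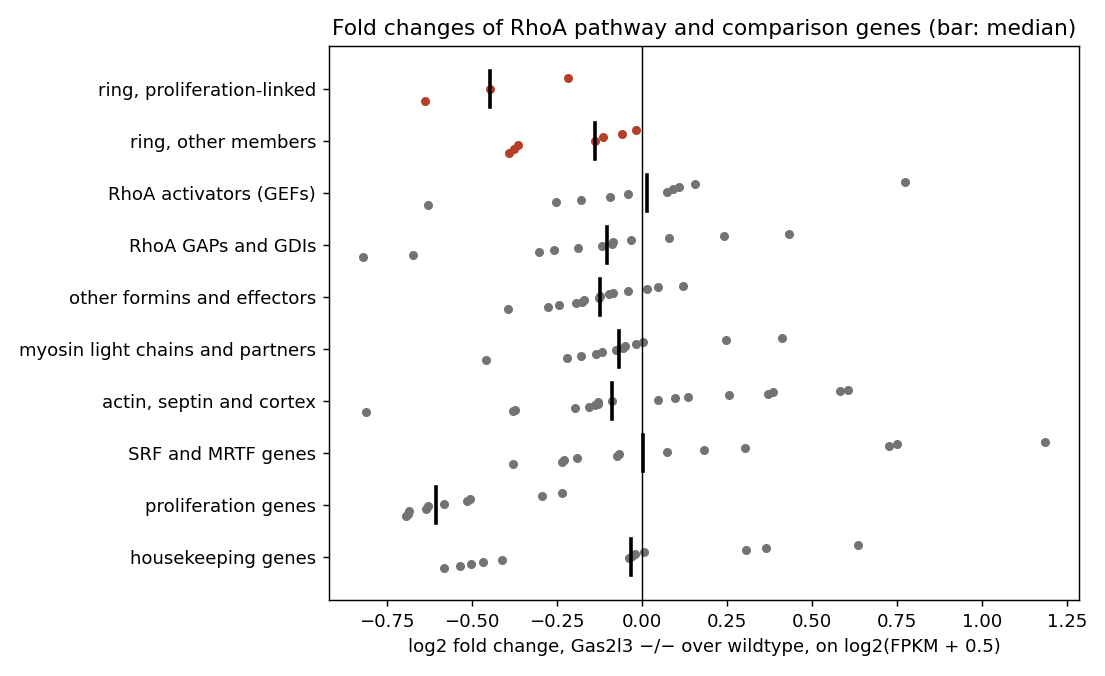
Log2 fold changes, Gas2l3 -/- over wildtype, of the members (red) and of the other RhoA pathway and comparison lists (grey), 1 point per tested gene and a bar at each list's median. The proliferation genes lie wholly below 0 with a median of -0.61, the proliferation-linked ring genes have a median of -0.45, and the remaining lists have medians between -0.14 and 0.02 and spread to both sides of 0, except the other ring members, which lie between -0.39 and -0.02.

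As the plot of lists shows, the ring and pathway genes furthest below 0 were Racgap1, Iqgap3, Arhgap11a, Anln and Ect2, all known for transcripts that follow the cell cycle; they were picked out after their values were seen. Markers of cardiomyocytes had lower means in Gas2l3 -/- for 8 of 8 genes, with a summed level of 19856 to 21362 FPKM in Gas2l3 -/- and 21754 to 32126 FPKM in wildtype, and none of them was at 0 in any library. The sums rest mostly on the most abundant genes, and the mean log2(FPKM + 0.5) of these markers overlapped, at 8.77 to 8.99 in Gas2l3 -/- and 8.86 to 9.81 in wildtype. With trends removed 6 of the 8 stayed lower, and Tnnt2 and Ttn stood at 0.0041 and 0.037. Markers of macrophages had higher means for 6 of 6, with sums of 48.7 to 87.5 FPKM in Gas2l3 -/- and 28.5 to 37.2 FPKM in wildtype. These sums rest largely on Lyz2, at 32.1, 72.2 and 35.8 FPKM in Gas2l3 -/- and 17.4, 24.3 and 9.47 FPKM in wildtype. The mean log2(FPKM + 0.5) of the macrophage markers was 2.36 to 2.55 in Gas2l3 -/- and 1.81 to 2.02 in wildtype. Csf1r and Mrc1 stood at only 0.036 and 0.032, and with trends removed Mrc1 alone turned lower, at -0.17. Fibroblast markers (5 of 7 higher), endothelial markers (4 of 6 higher), smooth muscle and pericyte markers (4 of 6 higher) and epicardial markers (2 of 4 higher) had sums that overlapped between the groups. Of 7 erythroid markers 3 were tested, all higher, with sums of 29.1 to 123 FPKM in Gas2l3 -/- and 28.0 to 49.5 FPKM in wildtype, and the hemoglobin genes Hba-a1, Hbb-bs and Hbb-bt are listed at 0 in every library. Of 7 markers of lung, liver and thymus 2 were tested, and of 4 skeletal muscle markers 1, all with higher means and with sums that overlapped between the groups. The part of cell composition in the member values was not tested.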

How the data were processed

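Total RNA of E18.5 hearts was DNase-treated, selected for poly(A) and made into NEBNext Ultra libraries, per the labels' protocols. FastQC, DESeq2 and build mm10 are named in the submitters' processing notes. The sources used here do not give the aligner, counter, annotation or use of strand, so overlapping genes may share reads. The authors deposited FPKM per gene and library; per the file headers, the authors' deposited table of their comparison gives fold changes and p-values. From the values, FPKM were scaled by size factors: all 94235 values above 0 gave whole reads within a tolerance of 0.01 (100%). Read numbers cover counting error only.

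Groups came from the labels. The members and lists were chosen with earlier results of these data known. Groups were compared two-sided by limma 3.58.1 under R 4.3.3 (functions lmFit and eBayes, trend on), with group as factor. FPKM are not counts, so no count test was the main one; voom on recovered reads was an alternative. Fold changes on log2(FPKM + 0.5) understate the change of low genes. Named genes were the members, Gas2l3, up to 4 genes of each pathway list with the smallest p, and the 5 genes most correlated with Anln and with Rhoa (predicted genes, pseudogenes and RIKEN clones left out); all markers and lists are given as counts, and some genes under this rule are not reported here. Deviations from group means of same-numbered libraries correlated at 0.472, 0.443 and 0.186, each above 0.1, so a block on replicate number was fitted too; this pairing comes from the data, since labels only number the samples. GC content (for 96.7% of tested genes) and coordinates (1-based) came from GENCODE M21 on GRCm38, which is mm10; trends were removed by loess (span 0.3). Further alternatives changed the pseudocount (0.1 or 1), the filter (none, or a mean FPKM of at least 5), the scaling between libraries, the library weights and the threshold (0.1), or left out each library. Scripts were tested on simulated data.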

Additional observations from a re-analysis of the deposited data

How the results depend on the processing

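No member was called under any alternative run. Rock1, Diaph1, Diaph2, Diaph3 and Anln kept a log2 fold change below 0 in all of theirs, whereas Rhoa, Rock2, Cit, Myh9 and Myh10 did not. The filters, the threshold and the replicate block cannot change a member's fold change, so they do not test its sign. Rescaled to a common total, which moved the median of all genes to 0.15, the log2 fold change was 0.12 for Rhoa, 0.035 for Rock2, 0.158 for Myh9 and 0.063 for Myh10. After quantile normalization it was 0.080 for Rhoa and 0.091 for Myh9. With GC and length trends removed it was 0.26 for Myh9, with and without the replicate block; 1 gene, Ppp1r1b, was called without the block and 0 with it. With library weights (limma's gene-by-gene method) it was 0.065 for Cit, 0.39 for Myh9 and 0.40 for Myh10, and 2 genes, Ppp1r1b and Mir6981, were called; both are no members and were named after their values were seen. With 1 library left out in turn, Rock2 ranged from -0.40 to 0.012, Myh9 from -0.24 to 0.25 and Myh10 from -0.37 to 0.14. The cause of these shifts was not tested. With the replicate number as a block, limma called 0 genes and no member's call changed. Anln then had an unadjusted p of 0.0406 and an adjusted p of 0.782, and 729 of 12121 genes had an unadjusted p under 0.05. Each library left out leaves 2 in its group. Diaph2 and Cit rest on the fewest reads of the members, and the part of depth in their spread was not tested.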
